A study of Caenorhabditis elegans with 15 samples.

Results

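The genes described here code for the proteins of nematode sperm that carry the names msp (major sperm protein), ssp and sss (sperm-specific families of classes P and S) and nspd (nematode-specific peptides of group D). A probe set, the group of probes that reads 1 transcript on the array, was taken when any gene assigned to it carried 1 of these family names. This rule found 59 of 29317 probe sets. A pair of msp probe sets had identical values on every array and was counted once, which left 58 probe sets, 33 of msp, 13 of ssp, 2 of sss and 10 of nspd genes.

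Sperm of Caenorhabditis elegans crawl instead of swimming, and filaments of major sperm protein drive this movement. The same protein is released from sperm and acts as the signal that lets oocytes mature and the sheath cells around them contract. A hermaphrodite makes its sperm in a single bout before it turns to oocytes, so that in an adult the sperm transcripts stem from a stage that is ending while oocyte transcripts accumulate.

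In the study wild-type worms (strain N2, young adults) were kept for 6 h at 20 °C with plant material of Combretum mucronatum or with the solvent DMSO alone. RNA of whole worms, many animals per sample, was read on 15 gene arrays, 3 for each of 5 groups from independent experiments. The groups were the crude extract RE, the solvent control, and the procyanidin fraction H3 at 0.02, 0.2 and 2 mg/mL, called H3 0.02, H3 0.2 and H3 2 below. The concentration of RE is 0.2 mg/mL in the sample titles and 2 mg/mL in the treatment label. Because whole worms were used, fewer sperm, less transcript per sperm and more RNA from other tissues cannot be told apart. The adult genes col-19, a collagen of the adult cuticle, and vit-2, vit-5 and vit-6, which code for yolk proteins, had log2 values of 10.77 or more on all arrays. Not all of the 5 yolk probe sets of 1 gene are named here. The yolk gene vit-1 lay at 6.45 to 7.68 on late and 7.31 to 10.35 on early arrays, 2 sets that are described next.

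Along the leading principal component, which held 52.0% of the variance, 7 arrays stood apart from the other 8. These are called late and early arrays, since they stand at the end and at the start of the list of arrays. The list runs through the treatments in 4 rounds. Rounds 1 and 2 hold the early arrays and rounds 3 and 4 the late ones. Rounds 2 and 3 hold 1 array of every group, round 1 holds H3 0.02, H3 2 and control replicate 1, and round 4 holds RE and H3 0.2 replicate 3. The labels do not say what a round was, so that culture, day and handling cannot be told apart. RE and H3 0.2 have 2 late arrays each, whereas the control, H3 0.02 and H3 2 have 1 each, and a difference between late and early arrays thus enters the comparisons of RE or H3 0.2 with the others.

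The values are log2 expression values after normalisation over all arrays. They compare samples for a given probe set and give no order of level between genes. Of the 58 probe sets 44 had a mean above that of the median probe set, among them 28 of msp, 7 of ssp, both of sss and 7 of nspd. The median of single arrays was 3.54 to 3.65, and for probe sets below it expression above background was not shown. The msp genes are close copies of one another, so that only 4 of the 33 msp probe sets are assigned to 1 gene and the others to up to 20 genes. In all, 23 probe sets belong to 1 gene and 35 are shared. For a shared probe set the signals of its genes cannot be told apart, and it is named here by the first gene on its list. In the RefSeq annotation of assembly WBcel235 the probe sets cover 30 msp genes, 13 on chromosome II and 17 on chromosome IV. The 13 ssp, 10 nspd and 2 sss genes are spread over chromosomes I, II, III, IV and V, and sss-2 is annotated as a pseudogene.

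In the fit with a mean for each group and no block, none of the sperm probe sets passed the test for up- or down-regulation by RE or H3. With the array round as a block 2 were lower for H3 2, and with early arrays alone 8 were, as described further on. A probe set was called where limma gave a p of 0.05 or less after Benjamini-Hochberg adjustment and the fold-change reached 2, a log2 difference of 1. Against the control 0 of 58 sperm probe sets passed for RE, where 0.935% of all probe sets did. The count was also 0 of 58 for H3 0.02, where 0.624% of all probe sets passed, for H3 0.2 with 1.1%, and for H3 2 with 1.57%. At an unadjusted limma p under 0.05 there were 0 for RE, 0 for H3 0.02, 2 for H3 0.2 and 1 for H3 2. Over all 29317 probe sets these counts were 2751, 2105, 3104 and 3768. The analysis of variance of the study's methods likewise called 0 sperm probe sets in each comparison. The median log2 difference from the control over the 58 probe sets was −0.27 for RE, −0.09 for H3 0.02, −0.30 for H3 0.2 and −0.25 for H3 2. The median over all probe sets lay between −0.00462 and 0.0231 in these comparisons. The standard error of the sperm probe sets was 0.60 at the median, and their 95% intervals reached −2.71 and 2.16 for RE, −2.27 and 2.54 for H3 0.02, −3.12 and 2.35 for H3 0.2 and −2.90 and 2.53 for H3 2, so that an absence of change was not shown. The medians depended on single arrays. Without control replicate 3 they were −0.95 for RE, −0.71 for H3 0.02, −0.90 for H3 0.2 and −0.84 for H3 2, and 1 probe set was then called for H3 0.2, the dimmer one of nspd-5 and nspd-4. Other omissions turned the sign, to 0.07 for RE and 0.10 for H3 2 without control replicate 2, to 0.35 for H3 0.02 without its replicate 3 and to 0.10 for H3 0.2 without its replicate 2. With late and early arrays as a block the median was 0.06 for RE, with 35 of 58 differences positive, and 0.08 for H3 0.2, with 37 positive, the 2 groups with an additional late array.

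Nor did the treated groups differ from one another by a call. Between RE and H3 0.2, the pair with the same concentration in the titles, 0 of 58 sperm probe sets passed in limma, with 0% of all probe sets called, 0 at an unadjusted p under 0.05 and a median log2 difference of −0.01. The 95% intervals of single probe sets reached −2.67 and 2.55, so that likeness of RE and H3 0.2 was not shown. Between RE and H3 2 the count was 0 with 0% of all probe sets called, and 0 at an unadjusted p under 0.05. Of all 29317 probe sets 652 had such a p for RE against H3 0.2 and 944 for RE against H3 2. Within the H3 series 0 sperm probe sets passed for H3 0.2 against H3 0.02 (0% of all probe sets). The count was also 0 for H3 2 against H3 0.02 (0.0375% of all probe sets) and for H3 2 against H3 0.2 (0%). At an unadjusted p under 0.05 there were 1, 0 and 0 in this order, against 823, 1288 and 1216 over all probe sets.

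In every group most sperm probe sets were lower on late than on early arrays. With the treatment group as a term in the limma fit, 35 of 58 sperm probe sets were lower on late arrays and 0 higher. Of all probe sets 5.65% were lower and 3.16% higher. Many of the 58 sperm probe sets share genes and are not separate readings. The median log2 difference was −1.19, a 2.29-fold lower value, and 54 of 58 differences were negative. Over all probe sets the median was −0.01. The split into late and early arrays had been seen on all probe sets of these arrays, the sperm ones included, and these counts are therefore a description and no independent test of the split.

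**Figure D1:**
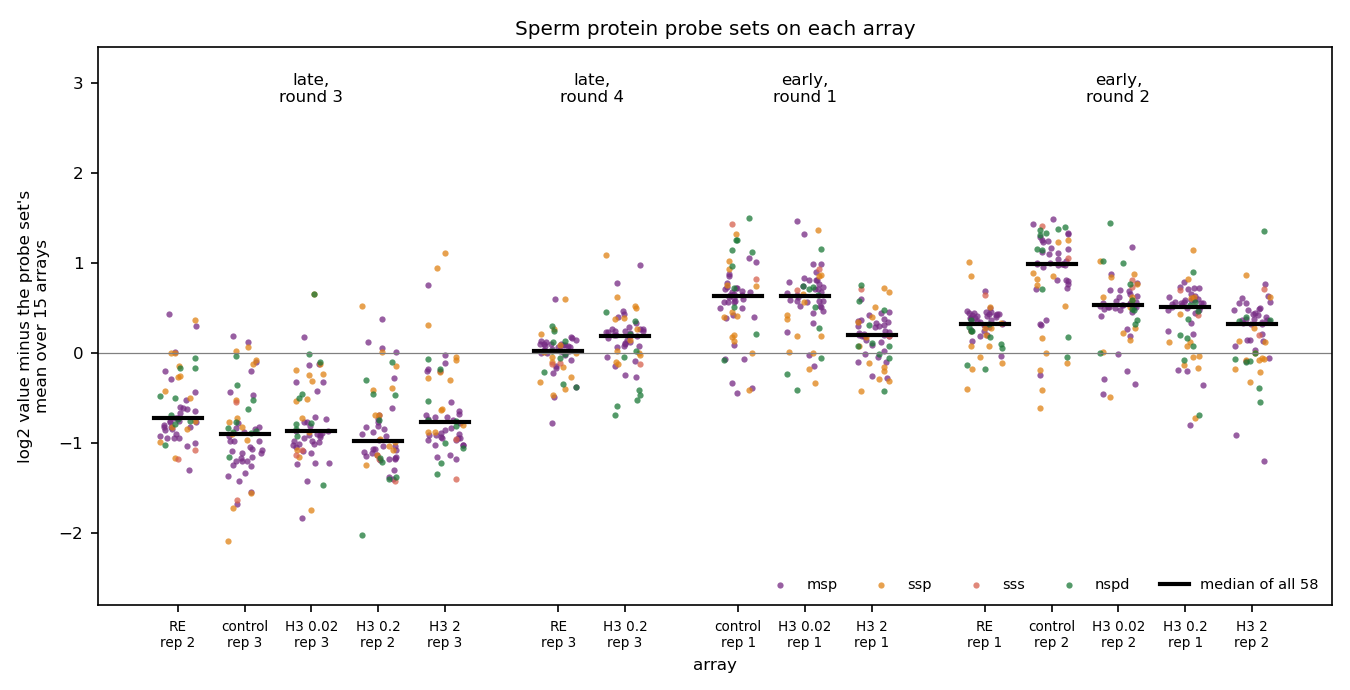
Log2 value of each of the 58 sperm probe sets minus its own mean over the 15 arrays (vertical axis), for each array (horizontal axis), grouped by late and early arrays and by round. Points are probe sets coloured by family and bars are medians, and the 5 arrays of round 3 lie lowest, with the 2 arrays of round 4 between them and the early arrays.

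The arrays of round 3 carried most of this difference. The median log2 value over the 58 probe sets was 5.95 to 6.17 on the 5 arrays of round 3, 7.09 to 7.24 on the 2 arrays of round 4 and 7.21 to 8.29 on the 8 early arrays. Round 3 thus lay apart from all other arrays, whereas round 4 met the lower end of the early arrays. Probe set by probe set, round 4 was above round 3 for 52 of 58, with a median log2 difference of 0.88, and below the mean of the early arrays for 51 of 58, with a median of −0.41. For 23 of 58 sperm probe sets every late array was below every early array, against 7.54% of all probe sets. For 38 of 58 every array of round 3 was below every early array, against 9.75% of all probe sets.

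The difference was present in each treatment. Late arrays were lower than early arrays of the same group for 53 of 58 probe sets in RE (median log2 difference −0.69), 54 in the control (−1.85), 56 in H3 0.02 (−1.45), 50 in H3 0.2 (−0.93) and 50 in H3 2 (−1.02). Between rounds 3 and 2, which hold 1 array of every group, the median was −1.06 in RE, −1.97 in the control, −1.37 in H3 0.02, −1.44 in H3 0.2 and −1.09 in H3 2. The control thus had the greatest median on both counts, with 1 late array behind it. A limma F test of the interaction of group and array set passed for 0 of 58 sperm probe sets (smallest adjusted p 0.80, 7 at an unadjusted p under 0.05) and for 0 of all probe sets. For the unadjusted p no count over all probe sets was made.

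Among the msp probe sets, which read the proteins of the sperm cytoskeleton, 26 of 33 were lower on late arrays, with a median log2 difference of −1.29. All 4 msp probe sets of 1 gene were among them. The others share genes with one another, so that the 33 are not separate readings. On late arrays msp-78 had log2 values of 8.26 to 9.85 with a median of 8.67, and on early arrays of 9.83 to 10.74 with a median of 10.19. The sets of arrays overlapped by a single late array, H3 0.2 replicate 3 of round 4. The difference was −1.45 ± 0.26 (SE, limma adjusted p = 0.000442).

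The msp-33 probe set behaved alike, with 5.61 to 7.46 (median 5.77) on late and 7.35 to 8.22 (median 7.68) on early arrays, a difference of −1.57 ± 0.30 (SE, limma adjusted p = 0.000774). For msp-38 the late arrays lay at 5.99 to 7.23 (median 6.20) and the early arrays at 7.09 to 8.35 (median 7.61). For msp-3 they lay at 3.22 to 4.52 (median 3.52) and 4.34 to 4.98 (median 4.66). The late median of msp-3 was below the medians of the late arrays, 3.54 to 3.58, where expression above background was not shown. The late minus early differences were −1.31 for msp-38 and −1.13 for msp-3. In all 4 the overlap came from round 4 alone, since each array of round 3 was below each early array.

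Shared msp probe sets gave differences of the same size. The probe set of msp-77 and msp-79 had 8.90 to 10.33 on late and 10.37 to 11.22 on early arrays, without overlap, and differed by −1.35 ± 0.23 (SE, limma adjusted p = 0.000358). Those led by msp-142, msp-19, msp-31 and msp-10, each shared by 11 to 17 genes, differed by −1.47, −1.46, −1.34 and −1.32. The probe set led by msp-10 reached 10.30 to 11.76 on late and 11.82 to 12.43 on early arrays. The 7 msp probe sets that were not called are all shared, 5 of them lie below the median probe set, and their differences ran up to 0.33.

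**Figure D2:**
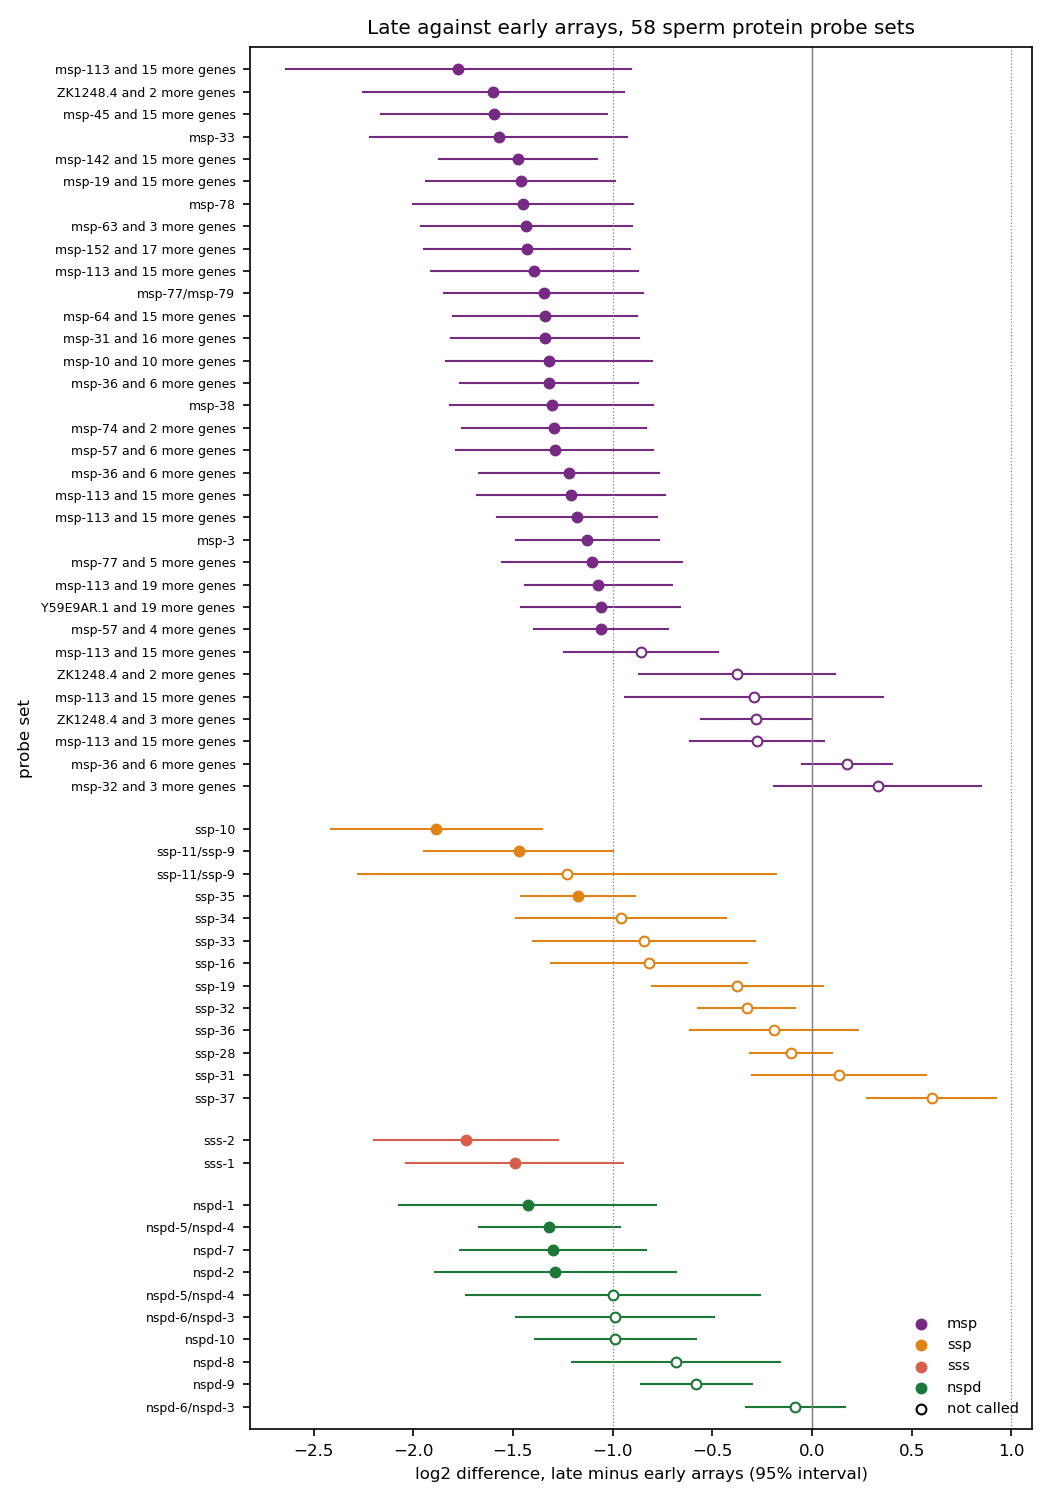
Late minus early log2 difference of each of the 58 sperm probe sets from the limma fit with the treatment group as a term (horizontal axis, points with 95% intervals), by family (vertical axis). Filled points were called and open points were not, dotted lines mark a log2 difference of 1 in either direction, and 26 of 33 msp probe sets are filled.

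The ssp probe sets, many of which read short proteins with the domain of major sperm protein, were less uniform, with 3 of 13 lower on late arrays and a median log2 difference of −0.82. Only 7 of the 13 lie above the median probe set. The difference of ssp-10 was the greatest of the 58, with 6.41 to 8.76 (median 7.35) on late and 8.63 to 9.64 (median 9.36) on early arrays and a difference of −1.88 ± 0.24 (SE, limma adjusted p = 3.44e-05). The probe set of ssp-11 and ssp-9 with the higher signal had 7.91 to 9.85 on late and 9.87 to 10.28 on early arrays, without overlap, and differed by −1.47. A second probe set of the same 2 genes, near the median, differed by −1.23 and was not called.

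The ssp-35 values were 1.78 to 2.56 on late and 2.94 to 3.48 on early arrays, all below the array medians, and although the call was made (−1.17 ± 0.13), expression above background was not shown. The differences of ssp-34 and ssp-16 were −0.96 and −0.82, short of the fold-change required, and those of ssp-28 and ssp-31 were −0.11 and 0.14. The ssp-37 probe set was, with ssp-31, 1 of 2 in the family with a positive difference, with 3.82 to 5.53 on late and 3.97 to 4.66 on early arrays and a difference of 0.60 ± 0.15 (SE, limma adjusted p = 0.00577), which did not reach a fold-change of 2.

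Both sss probe sets were lower on late arrays. The sss-2 probe set had 7.75 to 9.26 (median 8.31) on late and 10.03 to 10.44 (median 10.10) on early arrays. The late and early arrays were apart, and the difference was −1.73 ± 0.21 (SE, limma adjusted p = 2.13e-05). For sss-1 the values were 5.84 to 7.44 (median 6.13) on late and 7.44 to 8.69 (median 7.84) on early arrays, with a difference of −1.49 ± 0.25 (SE).

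All 10 nspd probe sets, which read small peptides found in nematodes, had negative differences and 4 were called. The nspd-1 values were 8.64 to 10.46 (median 9.11) on late and 10.18 to 11.47 (median 10.70) on early arrays, a difference of −1.43 ± 0.30 (SE, limma adjusted p = 0.00163). The differences of nspd-7 and nspd-2 were −1.30 and −1.29, and that of the brighter probe set of nspd-5 and nspd-4 was −1.32. Among the nspd probe sets of 1 gene nspd-9 had the smallest difference, −0.58, with 5.84 to 6.35 on late and 6.31 to 7.08 on early arrays.

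Other genes of sperm were lower on the late arrays too. Of 33 spe and fer genes, which are needed to form sperm or to fertilise, 17 were lower on late arrays and 0 higher, with a median log2 difference of −1.03. Among them spe-4, which codes for a presenilin of the sperm organelles, had 5.14 to 6.32 on late and 7.08 to 7.39 on early arrays (−1.65), and fer-1, which is required for the fusion of these organelles with the cell surface, had 3.62 to 5.37 and 5.91 to 6.52 (−1.81). The differences of spe-15, a myosin, and spe-26 were −1.49 and −1.20. Of 15 genes of other sperm families 12 were lower and 0 higher, with a median of −1.38. They included spch-2 (−1.77) and spch-1 (−1.38) of the sperm chromatin, ssq-3 (−1.69) and the sperm phosphatase gsp-3 (−1.58).

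Oocyte genes ran the other way. Of 24 genes of oocytes, eggshell and early embryos 17 were higher on late arrays and 0 lower, all 24 differences were positive, and the median log2 difference was 1.21, a 2.31-fold higher value. The egg-2 gene, whose product sits in the oocyte membrane and is needed for fertilisation, had 8.63 to 9.08 on late and 6.71 to 7.48 on early arrays, a difference of 1.68. The oma-2 gene, a regulator of oocyte maturation, had 11.45 to 11.80 and 9.54 to 10.22, a difference of 1.71. The differences of egg-3 and egg-1 were 1.46 and 1.47. Unlike the sperm probe sets, the oocyte genes did not set round 4 between the others, with an array median over the list of 10.52 to 10.81 in round 3, 10.97 to 11.07 in round 4 and 9.35 to 9.78 on early arrays.

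Genes of the germ line as a whole had smaller differences. Of 16 such genes 0 passed in either direction, and the median was 0.30. An unadjusted limma p under 0.05 was found for 13 of them, against 12505 of all 29317 probe sets. The greatest differences belonged to deps-1 (0.73), syp-3 (0.56) and rec-8 (0.50). Of 8 regulators of the sperm fate, fem-3, which promotes the sperm fate, was higher on late arrays (1.33) and fog-3, which acts last in that decision, was lower (−1.11), while elt-1 and fem-2 differed by 0.81 and 0.66 without a call.

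Of 13 genes with a part in the response to major sperm protein 2 were higher on late arrays and 0 lower. Of all probe sets 3.16% were higher and 5.65% lower. The median log2 difference of the 13 was −0.01, and 7 differences were negative. The 2 called were vab-1 (1.06) and inx-22 (1.25), a gap junction subunit of oocytes. The vab-1 gene, which codes for the Eph receptor that the protein binds, had 8.78 to 9.26 on late and 7.78 to 8.13 on early arrays. The differences of gsa-1, the stimulatory G protein of the sheath, and kin-1, a protein kinase A subunit, were −0.84 and −0.83, short of the fold-change required.

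Markers of somatic tissue moved in part as well, and their share in the difference of the sperm probe sets was not tested. In the intestine ifb-2 (−1.51) and act-5 (−1.58) were lower and mtl-2 (1.17) higher on late arrays, and elt-2 differed by −0.72. The muscle genes unc-27, myo-3, unc-15 and unc-54 differed by −0.50, −0.84, −0.43 and −0.40 and hlh-1, the muscle fate regulator, by 0.70. Of 5 muscle and 5 neuron genes 0 were called, since none reached a fold-change of 2. An unadjusted limma p under 0.05 was found for 5 and 3 of them, and for 12505 of all 29317 probe sets. Of 5 yolk probe sets 3 differences were positive and 2 negative. The vit-1 gene was lower (−1.32), the other negative difference was not called, and vit-2, vit-5 and vit-6 differed by 0.72, 0.43 and 0.39. The adult marker lin-29 was lower, with a log2 difference of −1.07.

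**Figure D3:**
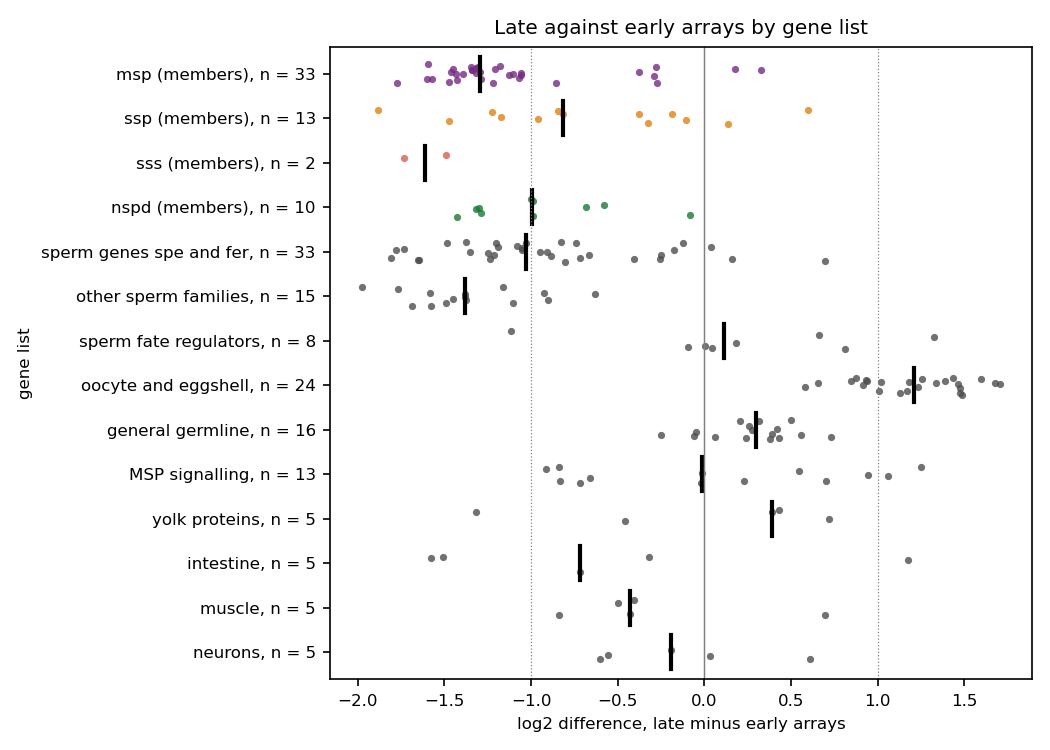
Late minus early log2 difference of each probe set (horizontal axis) for the 4 sperm families and for lists of other genes (vertical axis), with the number of probe sets in each. Points are probe sets and bars are medians, and the sperm lists lie at medians of −0.82 to −1.61 and the oocyte and eggshell list at 1.21.

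Since late and early arrays differed by more than the treatments, treated and control arrays of the same round were also compared. In round 3 the RE array was higher than the control for 44 of 58 sperm probe sets (median log2 difference 0.22), whereas in round 2 it was lower for 51 (−0.60). H3 0.02 was lower for 29 of 58 in round 1 (−0.00), for 45 in round 2 (−0.42) and for 24 in round 3 (0.08). H3 0.2 was lower for 49 in round 2 (−0.46) and for 27 in round 3 (0.02).

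H3 2 was lower for 48 of 58 probe sets in round 1 (−0.39) and for 50 in round 2 (−0.60), and higher for 43 in round 3 (0.22). The sign of the median thus turned between rounds 2 and 3 for all 4 treatments. The control array of round 2 had the highest median of all arrays, 8.29, and was the array to which all the comparisons of that round were made.

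**Figure D4:**
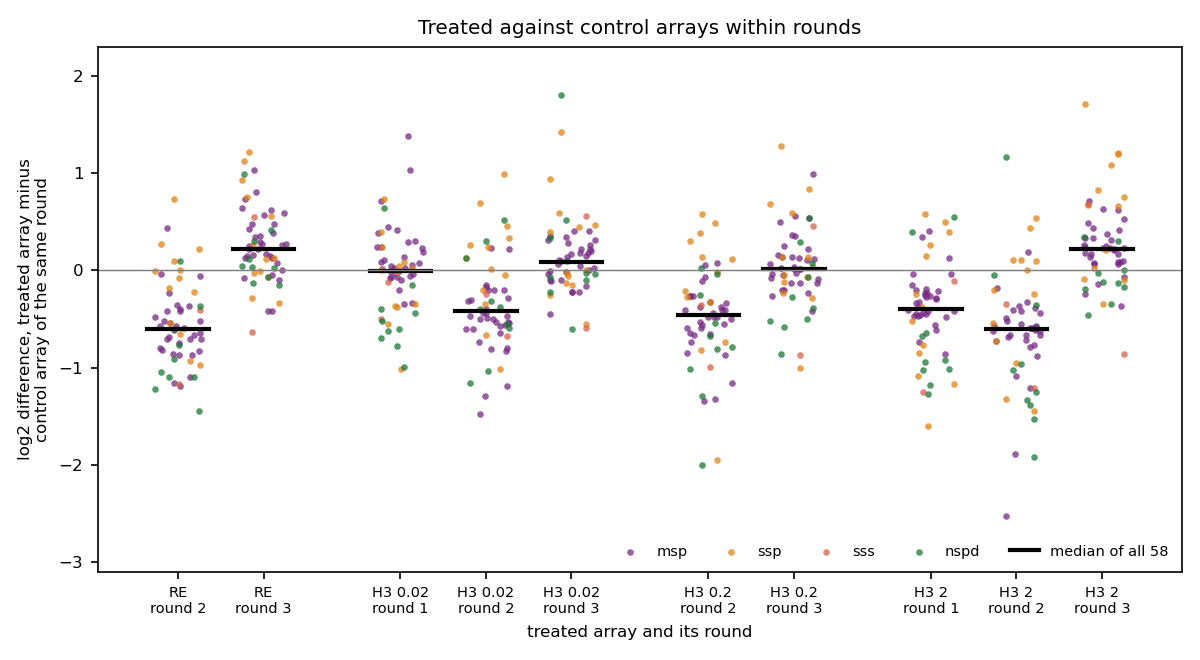
Log2 value of each of the 58 sperm probe sets on a treated array minus that on the control array of the same round (vertical axis), for each treated array of rounds 1 to 3 (horizontal axis). Points are probe sets coloured by family and bars are medians, which lie below 0 for every treatment in round 2 and at 0.02 to 0.22 in round 3.

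A few sperm probe sets kept their direction over the rounds, at shares no greater than over all probe sets. In the 10 pairs of a treated and a control array of the same round, which share 3 control arrays, sss-1, nspd-1 and the brighter probe set of nspd-5 and nspd-4 were lower on the treated array in all 10. The ssp-10 and ssp-37 probe sets were higher in all 10. These are 3 and 2 of 58 sperm probe sets, against 9.13% of all probe sets that were lower in every pair and 7.87% that were higher, so that the share among the sperm probe sets was not above the background.

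A limma fit with the array round as a block, an alternative to the fit used for calls, lowered the standard error of the sperm probe sets to 0.20 at the median for H3 0.02 and H3 2 and to 0.22 for RE and H3 0.2. At an adjusted p of at most 0.05 without a minimum fold-change, 1 sperm probe set was then lower for RE (5.47% of all probe sets passed), 1 for H3 0.02 (3.88%) and 1 for H3 0.2 (6.5%), with 0 higher in each. For H3 2 there were 5 lower and 2 higher (12.6%). In none of the 4 comparisons was the share of the sperm probe sets above that of all probe sets, and these counts are no result about the families. With the fold-change of 2 added, 2 of 58 were lower for H3 2, namely sss-1 and nspd-2, where 1.65% of all probe sets were lower.

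The sss-1 probe set was the 1 that passed in all 4 comparisons of this kind, which share the same 3 control arrays. In round 1 its log2 value was 8.19 in H3 0.02 and 7.44 in H3 2, against 8.69 in the control. In round 2 it was 7.50 in RE, 7.99 in H3 0.02, 7.68 in H3 0.2 and 7.46 in H3 2, against 8.67 in the control. In round 3 it was 6.08 in RE, 6.13 in H3 0.02, 5.84 in H3 0.2 and 5.86 in H3 2, against 6.71 in the control.

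The control was thus above every treated array of its own round, although the control array of round 3 lay below all arrays of rounds 1 and 2. With the round as a block sss-1 differed from the control by −0.97 ± 0.15 for RE (SE, limma adjusted p = 0.00328). The differences were −0.59 ± 0.13 for H3 0.02 (adjusted p = 0.0359 in the same limma fit), −0.89 ± 0.15 for H3 0.2 (limma adjusted p = 0.00526) and −1.11 ± 0.13 for H3 2 (limma adjusted p = 0.00042). Without the block they were −1.12 ± 0.73 for RE and −1.11 ± 0.73 for H3 2, and limma gave adjusted p = 0.788 and 0.624.

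The nspd-1 probe set had the same order within rounds. Its log2 values were 10.82 in H3 0.02 and 10.58 in H3 2 against 11.26 in the control in round 1, and 10.43 in RE, 10.87 in H3 0.02, 10.18 in H3 0.2 and 10.51 in H3 2 against 11.47 in the control in round 2. In round 3 they were 9.09 in RE, 8.64 in H3 0.02, 8.73 in H3 0.2 and 9.11 in H3 2, against 9.24 in the control, so that RE and H3 2 were close to the control there. With the round as a block the differences were −0.68 for RE, −0.54 for H3 0.02, −0.80 for H3 0.2 and −0.59 for H3 2, and none passed in limma (adjusted p = 0.119, 0.197, 0.0586 and 0.0879).

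For nspd-2 the difference was seen in the early rounds. In round 1 it had 5.78 in H3 0.02 and 5.12 in H3 2, against 6.39 in the control. In round 2 it had 5.42 in RE, 6.14 in H3 0.02, 5.71 in H3 0.2 and 4.59 in H3 2, against 6.51 in the control, and in round 3 values of 4.38 in RE, 4.36 in H3 0.02, 3.74 in H3 0.2 and 3.91 in H3 2, against 4.26 in the control. With the round as a block nspd-2 was down-regulated by H3 2, by −1.18 ± 0.27 (SE, limma adjusted p = 0.0163), and without it the same difference had a standard error of 0.69 and an adjusted p of 0.547 in limma.

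The ssp-10 and ssp-37 probe sets were those higher in every pair within a round. For ssp-10 the treated arrays of round 3 had 7.34 in RE, 7.35 in H3 0.02, 7.25 in H3 0.2 and 7.62 in H3 2, against 6.41 in the control, the lowest of all arrays. In round 2 they had 9.36 in RE, 9.52 in H3 0.02, 9.64 in H3 0.2 and 9.36 in H3 2, against 9.26 in the control. In round 1 they had 9.37 in H3 0.02 and 9.22 in H3 2, against 8.63 in the control. The treated arrays were thus nearest to the control in round 2, and with the round as a block the difference was 0.63 ± 0.18 for H3 2 (SE, limma adjusted p = 0.0394) and 0.48, 0.64 and 0.66 for RE, H3 0.02 and H3 0.2 without passing.

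The ssp-37 probe set had the greatest limma t of the sperm probe sets in each comparison with the control. In round 3 its values were 4.94 in RE, 5.24 in H3 0.02, 5.10 in H3 0.2 and 5.53 in H3 2, against 3.82 in the control. In round 2 they were 4.19 in RE, 4.10 in H3 0.02, 4.55 in H3 0.2 and 4.41 in H3 2, against 3.97 in the control, and in round 1 4.25 in H3 0.02 and 4.66 in H3 2, against 4.17 in the control. The arrays were thus farthest apart in round 3. With the round as a block the difference was 0.88 ± 0.23 for H3 2 (SE, limma adjusted p = 0.0303), and 0.56 for RE, 0.55 for H3 0.02 and 0.77 for H3 0.2 without passing. Without the block, over all 3 arrays a group the differences were 0.68 for RE, 0.55 for H3 0.02, 0.89 for H3 0.2 and 0.88 for H3 2, each ± 0.34 (SE), and limma gave adjusted p = 0.610, 0.933, 0.333 and 0.257.

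**Figure D5:**
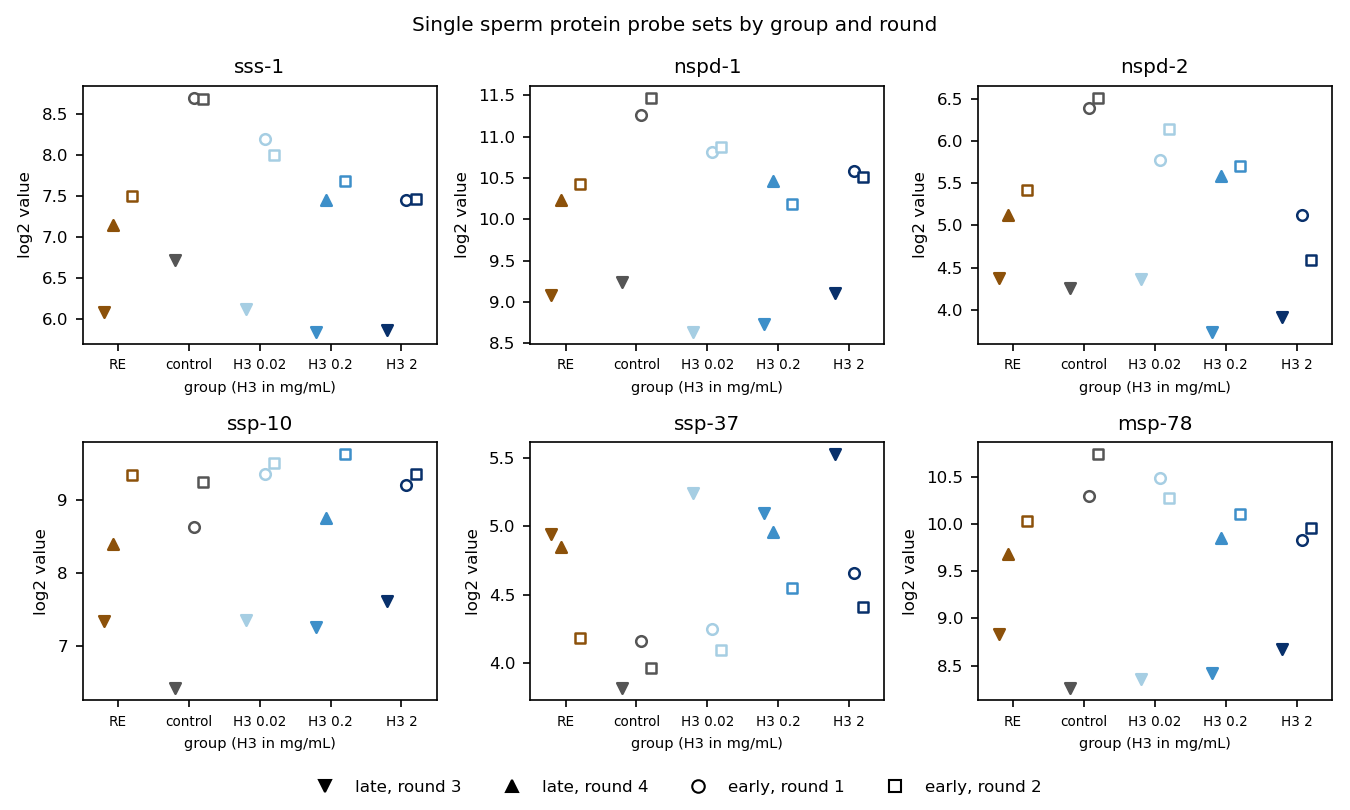
Log2 values of 6 sperm probe sets (vertical axes) on each array, by group (horizontal axes), with the late rounds as filled and the early rounds as open symbols. The sss-1 control array is the highest of its round in rounds 1, 2 and 3, and the ssp-37 control array is the lowest.

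The early arrays alone gave more calls for the highest concentration. With the 8 arrays of rounds 1 and 2, 8 of 58 sperm probe sets were lower in H3 2 than in the control, where 2.11% of all probe sets were lower. The 8 were sss-1, nspd-2, nspd-7, nspd-10, the brighter probe set of nspd-5 and nspd-4, ssp-16, ssp-34 and the shared probe set led by msp-142. This comparison has 2 arrays of H3 2 and 2 of the control, with control replicate 2, the array of highest median, among them. In round 3 the H3 2 array was higher than the control for 43 of 58. The nspd-10 log2 values were 6.87 and 6.54 in H3 2 and 7.89 and 8.07 in the control on these arrays, against 6.17 in H3 2 and 6.16 in the control in round 3.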

How the data were processed

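Whole-worm RNA was read on Affymetrix Gene 1.0 ST arrays for C. elegans, 3 per group. The authors imported the raw intensities into Partek, applied robust multi-array averaging with quantile normalisation and deposited log2 values, 1 per probe set and array. For Partek the version is not given in the sources used. The log2 values were used as deposited. Probe sets were named through the platform annotation, with symbols updated by gene identifier in RefSeq (WBcel235). Of 29317 probe sets 25600 had 1 gene, 592 several and 3125 none.

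A linear model with a mean for each of 5 groups was fitted to all probe sets and all 15 arrays with limma 3.58.1 in R 4.3.3, after tests on simulated data. P-values were adjusted by Benjamini-Hochberg over all probe sets within each of 9 comparisons, and 95% intervals are those of the fit. Late and early arrays were compared with group and array set as terms. The precision is limited by 3 arrays per group. Probe sets were named in the text when called between groups, when largest or smallest in their family for the late minus early difference, when of largest t against the control, or from a fixed set. The nspd-7, nspd-10, ssp-33 to ssp-35, msp-77 and msp-79 probe sets and others outside this rule were chosen after their values were seen. Members, lists and rule were chosen with earlier results of these data known, and the comparison of arrays within rounds was added after the data were seen.

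Alternatives were blocks for array set, array round and replicate number, early or late arrays alone, omission of single arrays, other filters and scaling, an intensity trend and the analysis of variance of the methods. In some comparisons the deviations from the group means were correlated between samples of the same replicate number (r over 0.1 in every pair). These were H3 0.02 and H3 2 with the control, H3 2 with H3 0.02, and RE with H3 0.2. In them the same replicate numbers lie in the same rounds, so that pairing by replicate and the split of arrays cannot be told apart. No sequences are shown.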

Additional observations from a re-analysis of the deposited data

How the results depend on the processing

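Between groups the count of called sperm probe sets stayed at 0 of 58 in all 9 comparisons with the replicate block, the array set as a block, an intensity trend, arrays centred on their medians, a filter on low values, no minimum fold-change and the analysis of variance. It moved in 3 comparisons with the control. With early arrays only it was 1 for RE, 2 for H3 0.2 and 8 for H3 2, where RE and H3 0.2 have 1 early array each, which is assumed to vary like the other groups, and with the array round as a block it was 2 for H3 2. Omission of single arrays gave 0 to 1 for H3 0.2, with the call made without control replicate 3. On late arrays only the difference of nspd-9 between RE and the control was 0.10. Between late and early arrays 31 to 40 sperm probe sets were called when single arrays were left out, the fewest without control replicate 3, and the median difference was −1.29 to −1.05. With the replicate block 38 were called, the median was −1.82 and ssp-28 differed by 0.00965 (limma adjusted p = 0.985). In that fit only replicate 2 holds both sets, late for RE and H3 0.2 and early for the other groups. Replicate number and array set are thus hard to tell apart there. Among the 23 probe sets of 1 gene 11 were called, and their median difference was −0.99. Other causes were not tested. Signals near the median of the arrays limit the weaker ssp and nspd probe sets, and the 15 arrays limit all comparisons.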
